A study of Mus musculus with 12 samples.

Results

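Nr4a3 knockout (KO) cells were compared with wild-type (WT) cells after 2 days in culture with the cytokines GM-CSF and IL-4, which turn monocytes into dendritic cells. The comparison holds 4 of the study's 12 poly(A) RNA-seq libraries, 2 per genotype, and its members were taken from the labels for genotype and culture time. All cells were monocytes from mouse bone marrow on a C57BL/6 background. The groups are labelled WT and Nr4a3 KO, and both received the same cytokines for the same time. The other groups, sorted monocytes and day 1 cells of both genotypes, serve here only to place the day 2 levels. The labels do not say how the KO allele was made, how old the mice were or whether a library pools several animals, so p-values measure the spread between these libraries. The libraries of a genotype came from 2 independent experiments, and the KO and WT libraries with the same replicate number carry the same date in the deposited data. They are taken here as the pair of 1 experiment.

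Nr4a3 encodes an orphan receptor. It belongs to the NR4A nuclear receptors, whose members act without a known natural ligand and are controlled mainly by how strongly their genes are switched on. They can bind DNA as single molecules at the NGFI-B response element (NBRE), a short DNA sequence named after NGFI-B, the product of Nr4a1. Dendritic cells take up antigen, then mature: they raise co-stimulatory molecules for T cells and the chemokine receptor CCR7, which guides them to lymph nodes. The question, as the series title puts it, is what NR4A3 does while monocytes differentiate into dendritic cells.

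Reads counted in genes numbered between 5905266 (KO replicate 1) and 12116249 (KO replicate 2) at day 2. Levels are given in CPM, read counts per gene relative to the library's total in genes, scaled with TMM factors over all 12 libraries, and values are listed for replicates 1 and 2 in turn. Log2 differences are KO minus WT with their standard error. Lineage markers of monocytes and dendritic cells were present in every day 2 library. Itgax, the integrin CD11c, was at 987 CPM or more and Cd74, the class II invariant chain, at 10410 CPM or more. Ptprc, Itgam and H2-Ab1 were at 77.3 CPM or more. The M-CSF receptor gene Csf1r was at 378.5 to 1403 CPM and Zbtb46 at 60.2 to 97.1 CPM. Ccr7 was at 853 and 739 CPM in WT but at 98.0 and 9.08 CPM in KO. The experiments differed strongly from each other. Both replicate 1 libraries held the female transcript Xist (885 CPM in WT and 794 CPM in KO), while both replicate 2 libraries held the Y-linked Ddx3y (63.0 and 59.9 CPM). Lyz2, which encodes lysozyme, was at 3794 and 500 CPM in WT and at 4799 and 934 CPM in KO, so for this gene the experiments stood further apart than the genotypes. Differences were therefore tested within pairs. In a bulk library, fewer cells of a type and less RNA per cell cannot be told apart.

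Nr4a3 itself (GRCm38 chr4:48045153-48086447, plus strand) was at 1287 and 1358 CPM in WT and at 39.0 and 19.3 CPM in KO at day 2. The KO libraries thus kept a low level of reads in the gene, and the groups did not overlap. The difference was -5.59 ± 0.37 on the log2 scale (48.2-fold lower; adjusted p = 0.00662 in edgeR's quasi-likelihood test with Benjamini-Hochberg adjustment). Counts are per whole gene and do not show which exons the reads left in KO came from. In the earlier WT stages Nr4a3 was at 0.307 and 0 CPM in sorted monocytes and at 16.5 and 10.4 CPM at day 1, so its level in WT was highest at day 2. In KO it was at 0.928 and 0 CPM in monocytes, and at day 1 its replicate 2 held 0 CPM, while the library labelled KO day 1 replicate 1 held 6.58 CPM. That last value puts the label in doubt, although both KO day 2 libraries also kept reads in the gene. The doubt bears on every comparison with day 1 below. The related receptor Nr4a1 was at 0.690 and 1.26 CPM in WT and 1.17 and 2.78 CPM in KO at day 2, a difference of 0.99 ± 0.47 that did not pass (adjusted p = 0.218). Nr4a2 was at 12.3 and 10.5 CPM in WT and 10.0 and 14.1 CPM in KO (0.09 ± 0.22, adjusted p = 0.833), and its groups overlapped. Within 5 Mb on each side of Nr4a3, 71 genes were tested, of which 3 rose and 6 fell, a share of 12.7% that equals the 12.7% over all genes.

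At an adjusted p under 0.05, 764 genes were higher in KO (6.25% of the 12233 tested) and 794 were lower (6.49%). The counts were similar but the sizes were not. Among genes that fell, 375 did so by at least 2-fold, 131 by at least 4-fold, 65 by at least 8-fold and 36 by at least 16-fold. Among genes that rose the same counts were 141, 7, 1 and 0. The median fold was 1.93 among genes that fell and 1.64 among genes that rose. The groups did not overlap for 702 of the genes that fell (88.4%, against 21.4% of all tested genes with KO below WT) and for 461 of those that rose (60.3%, against 18.1% with KO above WT). Many rises were thus seen inside each experiment but not across both.

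These calls rest on the pairing. Without the experiment as a term the same test called 0 genes higher and 3 lower (Arc, Slc4a8 and Adcy6), although 357 and 676 genes had an unadjusted p under 0.05. A paired fit over all 12 libraries, in which the 2 day 2 experiments kept terms of their own apart from those of the earlier stages, and whose biological coefficient of variation was 0.304 against 0.106 at day 2 alone, called 0 higher and 35 lower. Leaving out 1 day 2 library from that fit drops its whole pair, since the experiment term absorbs the library left alone. The day 2 genotype difference then rests on the other pair, and its spread comes from the earlier stages. Nr4a3 was at -6.12 without either replicate 1 library, at -5.05 without WT replicate 2 and at -5.04 without KO replicate 2. The same limit holds for every fit below that leaves out a day 2 library. Of the earlier stages 2 libraries stood apart. The second of WT monocytes did so by its 7.91% of unmapped reads and 12987 detected genes. The one labelled KO day 1 replicate 1 did so by its Nr4a3 reads. Other genes of that library, named after their values were seen, departed too. Ccl17 was at 136 CPM there, against 2370 CPM in KO day 1 replicate 2 and 1411 and 2895 CPM in WT day 1. In the same order, Cxcr2 was at 1.21 against 142, 217 and 189 CPM, and Irf8 at 85.9 against 9.63, 12.3 and 16.2 CPM. What set the library apart was not tested. Without these 2 libraries the paired fit over the other 10 called 7 higher and 142 lower. The unpaired fit and that over 12 libraries kept the direction of all 1558 called genes. DESeq2 with the pairing called 326 higher and 470 lower.

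**Figure D1:**
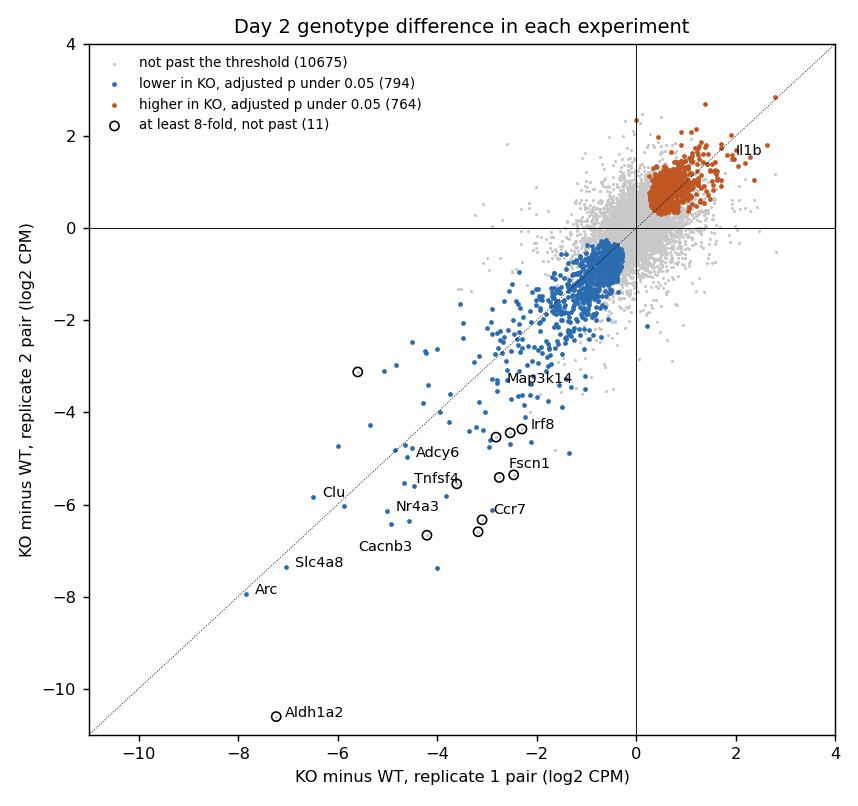
Each point is a tested gene; the axes give its KO minus WT difference (log2 CPM) in the replicate 1 pair and in the replicate 2 pair, and the dotted line marks equal differences. The 794 genes that fell reach far lower than the 764 that rose reach up, and the 11 open circles are genes at least 8-fold lower in KO and without overlap between groups that did not pass.

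The largest falls were in genes that were nearly silent in KO. Arc, which encodes a capsid-forming protein best known from neuronal synapses, was at 91.1 and 75.5 CPM in WT and at 0.167 and 0.0818 CPM in KO. Only 2 reads remained in both KO libraries against 1389 in WT, a ratio of summed reads per library size of 762 with a 95% exact counting interval of 211 to 6300. Arc lies at chr15:74669083-74672570. Slc4a8, a sodium-dependent bicarbonate transporter at chr15:100761747-100823968, was at 97.3 and 89.5 CPM in WT and 0.500 and 0.327 CPM in KO (-7.85 ± 0.22, adjusted p = 1.64e-06). For both genes the WT libraries lay close together, and the groups were far apart. Pou4f1, a POU-domain transcription factor, had 351 reads in WT and 1 in KO (a ratio of 385, interval 68.7 to 15260), and the mitochondrial carrier Slc25a29 had 355 and 3 (a ratio of 130, interval 44.1 to 633). These intervals cover counting error only, and reads copied by PCR are not independent molecules.

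The 15 largest falls also held the following genes. Adcy6, an adenylate cyclase that makes cyclic AMP, was at 236 and 248 CPM in WT and 9.34 and 7.85 CPM in KO (-4.84 ± 0.14, adjusted p = 1.7e-06). Clu, the secreted chaperone clusterin, was at 128 and 31.1 CPM in WT and 1.17 and 0.327 CPM in KO (-6.66 ± 0.21, adjusted p = 2.07e-06). Tnfsf4, which encodes the T cell co-stimulator OX40 ligand, was at 26.9 and 108 CPM in WT and 0.834 and 2.13 CPM in KO (-5.54 ± 0.21, adjusted p = 7.13e-06). Its WT level differed between the experiments, and both KO libraries lay far below either WT library. Icos, a co-stimulatory receptor known mainly from T cells, was at 4.03 and 24.2 CPM in WT and 0.500 and 0.736 CPM in KO (-4.63 ± 0.42). The remaining members of the 15 were Dscaml1, a cell adhesion protein, Fam198a, the transporters Slco5a1, Slc22a23 and Nipal1, the secreted protein gene Sned1 and Nr4a3. Their differences ran from -6.53 (Dscaml1) to -4.87 (Nipal1).

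**Figure D2:**
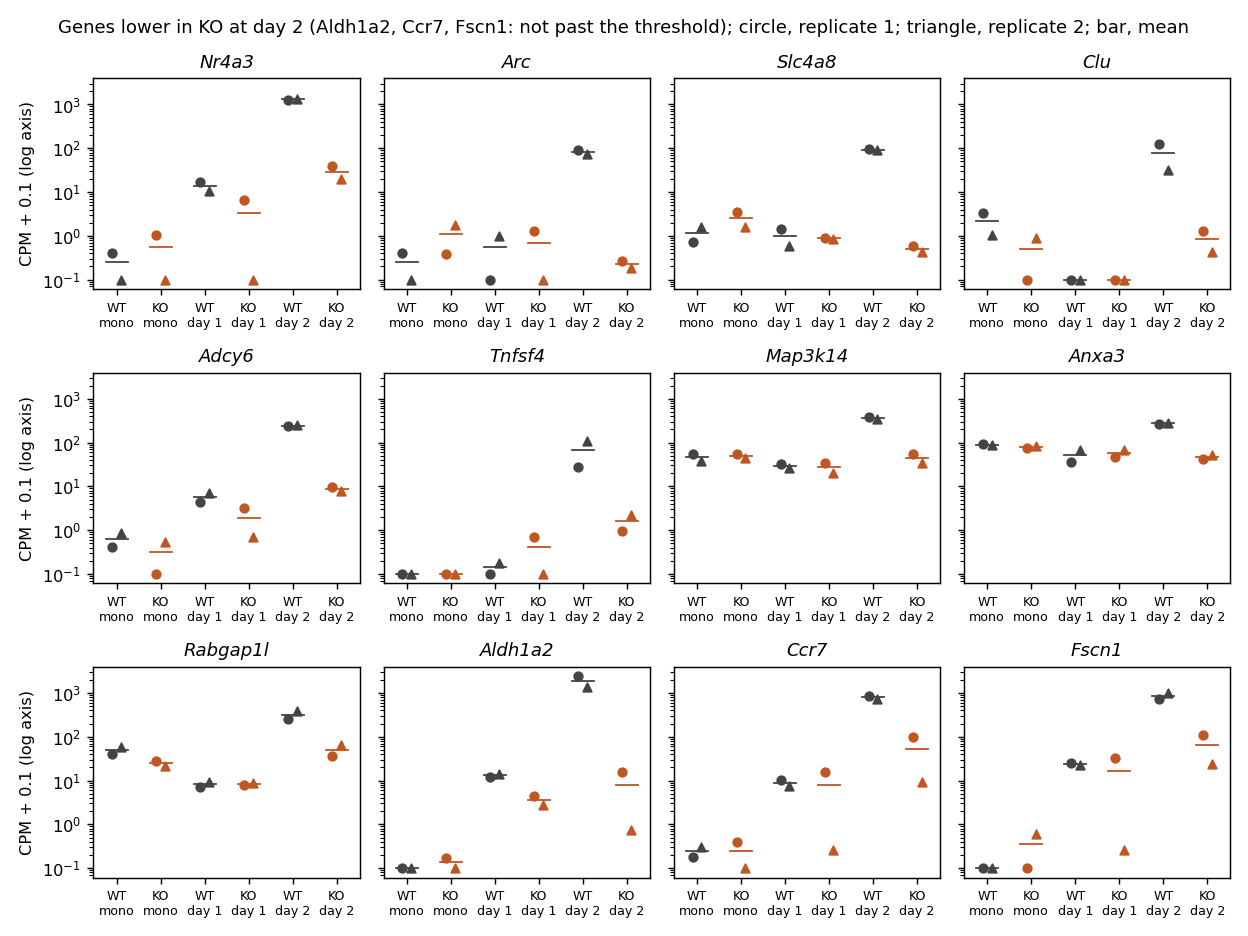
Level of 12 genes (CPM + 0.1, log axis) in every library, by genotype and stage; circles are replicate 1, triangles replicate 2 and bars the mean of both. WT day 2 stands above all earlier stages for most of these genes, as for Arc (91.1 and 75.5 CPM), while KO day 2 lies lower, with a gap between replicates for Aldh1a2, Ccr7 and Fscn1.

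Many listed genes of dendritic cell maturation and migration were lower in KO. Their list was written with earlier results of these data known, so its counts describe the list and are no independent test. Of 33 tested members, 17 fell (51.5%, against 6.49% of all genes) and 0 rose. The median difference was -1.92 against 0.0095 over all genes tested. Rabgap1l, a regulator of Rab GTPases, was at 251 and 383 CPM in WT and 35.9 and 63.6 CPM in KO (-2.69 ± 0.12, adjusted p = 1.18e-05). Anxa3, a membrane-binding annexin, was at 269 and 278 CPM in WT and 41.2 and 50.6 CPM in KO (-2.58 ± 0.12, adjusted p = 1.53e-05). Samsn1, an adaptor protein of immune signalling, was at 414 and 362 CPM in WT and 43.5 and 18.3 CPM in KO (-3.77 ± 0.33, adjusted p = 0.0128). None of these 3 genes had overlapping groups. Smaller falls were seen for Marcks, which binds actin and the plasma membrane (-0.94), the tetraspanin Cd63 (-0.79) and Stat5a, a transcription factor downstream of GM-CSF (-0.58). Ccl22, a chemokine that attracts regulatory T cells, was at 10750 and 15970 CPM in WT and 5087 and 3532 CPM in KO (-1.63 ± 0.31, adjusted p = 0.0446). Its companion Ccl17 did not follow, with 2539 and 3739 CPM in WT and 2962 and 5090 CPM in KO (0.33 ± 0.13, adjusted p = 0.129).

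Some of the best known maturation genes were far lower in both pairs and did not pass. These genes were singled out after their values were seen: 11 genes with at least 8-fold lower levels in KO and no overlap between groups had an adjusted p above 0.05, and 0 genes were in the same position on the higher side. Aldh1a2, the enzyme that makes retinoic acid (chr9:71215789-71296243), was at 2377 and 1360 CPM in WT and 15.3 and 0.654 CPM in KO (-8.39 ± 1.32, adjusted p = 0.156). Ccr7, the lymph node homing receptor, was at 853 and 739 CPM in WT and 98.0 and 9.08 CPM in KO (-4.57 ± 1.48, adjusted p = 0.324). Fscn1, which encodes fascin, a protein that bundles actin into cell protrusions, was at 732 and 998 CPM in WT and 107 and 23.6 CPM in KO (-4.05 ± 1.23, adjusted p = 0.307). In all 3 genes KO replicate 2 was well below KO replicate 1, and both lay under the WT range. Irf8, a transcription factor of monocytes and dendritic cells, was at 264 and 157 CPM in WT and 52.7 and 7.53 CPM in KO (-3.22 ± 0.79, adjusted p = 0.21). The calcium channel subunit Cacnb3 (-5.36), the inhibitory ligand Cd200 (-5.12), Nudt17 (-4.79), the natriuretic peptide receptor Npr1 (-3.84), the melanosome regulator Mreg (-3.62), Lad1 (-3.61) and the translation inhibitor Pdcd4 (-3.54) complete the 11. The median gap between the pairs' differences was 2.47 on the log2 scale among these 11 genes and 1.13 among the 36 that met the same conditions, a mean of at least 5 CPM included, and passed. The gap alone did not separate them: Pou4f1 passed with pair differences of -4.01 and -7.37. In the paired fit over all 12 libraries, Aldh1a2 (adjusted p = 0.0455) and Nudt17 (adjusted p = 0.042) did pass.

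Co-stimulatory and checkpoint genes contributed 6 falls (28.6%, against 6.49% of all genes) and 0 rises among 21 tested members (median -0.51). Besides Tnfsf4, its receptor Tnfrsf4 (OX40) was at 5.41 and 15.8 CPM in WT and 1.67 and 1.31 CPM in KO (-2.93 ± 0.45, adjusted p = 0.00902). Cd83, a surface marker of mature dendritic cells, was at 603 and 693 CPM in WT and 151 and 92.2 CPM in KO (-2.46 ± 0.27, adjusted p = 0.0155). Tnfrsf9 (4-1BB), Cd70 and Cd80, which are ligands or receptors in T cell co-stimulation, fell by 0.97, 2.65 and 0.51 on the log2 scale. Not every molecule of the class was lower. Cd40 was at 224 and 230 CPM in WT and 356 and 198 CPM in KO (0.23, adjusted p = 0.641), and Cd86 was at 141 and 431 CPM in WT and 153 and 128 CPM in KO (-0.84, adjusted p = 0.604). The groups of both genes overlapped.

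In the noncanonical NF-kB pathway, receptors of the TNF family act through the kinase NIK to release dimers of RelB and p52. Of 19 tested genes of that pathway and of TNF receptor signalling, 7 fell (36.8%) and 2 rose (10.5%). Over all genes 6.49% fell and 6.25% rose. Map3k14, which encodes NIK (chr11:103219762-103267472), was at 389 and 342 CPM in WT and 55.0 and 33.4 CPM in KO (-3.09 ± 0.16, adjusted p = 0.00012). The receptor Tnfrsf11a (RANK) was at 83.4 and 85.0 CPM in WT and 13.2 and 11.5 CPM in KO (-2.78 ± 0.14, adjusted p = 2.2e-05). WT replicates of both genes were close together and both KO libraries lay far below them. The pathway's transcription factors moved less: Relb fell by 1.06 and Nfkb2, the p52 precursor, by 0.95. The adaptors Traf1 and Traf2 and the ubiquitin ligase Birc2, which takes part in NIK degradation, fell by 0.72, 0.48 and 1.14. The ligand Tnf rose from 11.5 and 16.7 CPM to 25.01 and 46.8 CPM (1.32 ± 0.16, adjusted p = 0.00167), and the receptor Tnfrsf1a rose by 0.73. Among 17 tested canonical NF-kB genes 5 fell (29.4%) and 1 rose (5.88%). Rel (-0.86), Nfkb1 (-0.56) and the signalling ubiquitin ligase Traf6 (-0.98) were lower and the inhibitor Nfkbie (0.61) was higher. Rela was at -0.08 and did not pass (adjusted p = 0.69).

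Of 19 tested apoptosis regulators 6 fell (31.6%, against 6.49% of all genes) and 2 rose (10.5%, against 6.25%). The survival genes Mcl1 and Cflar fell by 0.86 and 0.90, while Bcl2 rose by 0.89 and the pro-death gene Bcl2l11 (BIM) rose by 0.94, so members with opposing roles moved in both directions. Bcl2a1a, Bcl2a1b and Bcl2a1d are included among the falls, and as near-identical copies their reads cannot be assigned with certainty. Among 20 tested GM-CSF and STAT5 response genes 5 fell (25%) and 1 rose (5%). Ccnd2, cyclin D2, was at 134 and 1174 CPM in WT and 21.5 and 121 CPM in KO (-3.01 ± 0.18, adjusted p = 0.000458). Its level differed strongly between experiments, and the pairs' differences were -2.60 and -3.30. Its relative Ccnd1 rose by 0.88. The feedback inhibitor Socs2 fell by 0.81 and the IL-2 receptor chain Il2ra by 1.00. Of 14 tested FOXO and trafficking genes 3 fell (21.4%) and 1 rose (7.14%). Foxo1 itself fell (31.6 and 42.0 CPM in WT, 15.2 and 14.3 CPM in KO, -1.33 ± 0.17, adjusted p = 0.00264).

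Of 27 tested transcription factors of the dendritic cell lineage, 6 fell (Relb, Nfil3, Batf3, Id2, Etv3 and Irf4, by 0.48 to 1.06) and 4 rose (Cebpb, Cebpa, Spi1 and Prdm1, from 0.48 to 0.67), shares of 22.2% and 14.8% against 6.49% and 6.25% over all genes. Irf8, given above with -3.22, did not pass. Irf4, which is tied to IL-4-driven dendritic cell development, was at 560 and 760 CPM in WT and 340 and 637 CPM in KO (-0.48 ± 0.13, adjusted p = 0.0462). Zbtb46, a factor that marks the dendritic cell lineage, was at 73.7 and 97.1 CPM in WT and 60.2 and 85.5 CPM in KO and did not pass (-0.24 ± 0.11, adjusted p = 0.195).

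Lipid genes split. Scd1, the desaturase that makes monounsaturated fatty acids (chr19:44394455-44407879), was at 218 and 228 CPM in WT and 22.3 and 30.5 CPM in KO (-3.08 ± 0.13, adjusted p = 1.18e-05), the gene with the largest fall of 29 tested genes of cholesterol and fatty acid synthesis. Only Acat2 fell with it (-0.97), and 0 members rose. The share of members that fell, 6.9%, was near the 6.49% over all genes. The fatty acid binding protein Fabp4 fell by 2.94, the oxidized LDL receptor Olr1 by 1.60 and the scavenger receptor Cd36 by 0.51, while the lipoxygenase Alox15 rose by 0.99 and the scavenger receptor Msr1 by 0.84.

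The reference promoters of the genes that fell were searched for the NBRE, spelled AAAGGTCA, on both strands of the window from 250 bases before to 50 bases after the RefSeq start (GRCm38.p6). Of 69 named genes that fell, 52 had a window and 2 held the letters, and both stretches are shown because they are the only matches. Letters are 5′ to 3′ on the gene's strand, and capitals mark the NBRE or its reverse complement.
Olr1: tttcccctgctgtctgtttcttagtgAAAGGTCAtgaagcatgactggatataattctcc
Tcf7: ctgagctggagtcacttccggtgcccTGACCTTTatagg
The Olr1 stretch (chr6:129507309-129507368, minus strand) has the element on the gene's strand, its first base 177 bases before the start. The Tcf7 stretch (chr11:52282596-52282634, minus strand) has it on the opposite strand, 13 bases before the start. Olr1 was at 123 and 61.7 CPM in WT and 47.0 and 17.3 CPM in KO (-1.60 ± 0.14, adjusted p = 0.000624). Tcf7, a transcription factor known from T cells, was low throughout, at 1.96 and 2.15 CPM in WT and 0.334 and 0.491 CPM in KO (-2.24 ± 0.55, adjusted p = 0.032). Over all 32817 windows 1.51% held the element. The other shares count genes that had a window, with a match in any window of the gene. They were 1.12% of genes tested at day 2, 0.969% of genes that fell (6 of 619) and 1.65% of genes that rose (10 of 606). Of 87 such genes that fell by at least 4-fold, 1 held it (1.15%). These shares are descriptions of the windows and carry no statement about binding.

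Most C-type lectins and most MHC class II genes were higher in KO. Of 23 tested C-type lectins, pattern receptors that bind sugars on microbes and dying cells, 15 rose and 2 fell (median 0.81, with 6.25% of all genes higher). Clec4n (dectin-2) was at 726 and 567 CPM in WT and 1475 and 1468 CPM in KO (1.20 ± 0.12, adjusted p = 0.000897), with no overlap between groups. Cd209a, the mouse gene nearest to human DC-SIGN, was at 7.13 and 45.02 CPM in WT and 17.0 and 137 CPM in KO (1.48 ± 0.14, adjusted p = 0.000543). Here the groups overlapped and each pair was higher in KO. Its relatives Cd209c and Cd209e rose by 1.56 and 1.85. For Cd209e the pairs' differences were 0.44 and 1.99, and replicate 1 held only 6 reads in each genotype. Cd207, langerin, rose by 1.86, from 1.495 and 5.56 CPM to 5.34 and 20.7 CPM. That was the largest rise among genes with a mean of at least 5 CPM. Against the trend, Ly75 (DEC-205), which takes antigen into dendritic cells, was at 474 and 520 CPM in WT and 160 and 154 CPM in KO (-1.66 ± 0.11, adjusted p = 0.000123). Olr1 was the other member that fell.

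Of 14 tested MHC class II genes, 9 rose (64.3%, against 6.25% of all genes) and 1 fell (7.14%, against 6.49%), with a median of 0.73. H2-Ab1, a class II chain, was at 2512 and 2303 CPM in WT and 4027 and 4969 CPM in KO (0.90 ± 0.14, adjusted p = 0.00534), and H2-Eb1 at 3274 and 2411 CPM in WT and 5264 and 5112 CPM in KO (0.89 ± 0.14). Ciita, the master activator of class II genes, rose by 0.74, from 258 and 307 CPM to 374 and 588 CPM. March1, a ubiquitin ligase that removes class II from the surface of immature dendritic cells, rose by 1.04, from 47.2 and 29.97 CPM to 80.9 and 74.4 CPM. Both KO libraries lay above both WT libraries for each of these 4 genes. Only H2-Eb2, a minor class II gene, fell (-2.11, from 30.9 and 7.08 CPM to 8.84 and 0.982 CPM). MHC class I presentation had 2 rises and 2 falls among 23 tested genes (8.7% each way, near the shares over all genes, median -0.19). Of 7 tested Fc receptor genes 5 rose and 0 fell, with Fcgr2b, the inhibitory IgG receptor, at 277 and 332 CPM in WT and 444 and 634 CPM in KO (0.81 ± 0.11, adjusted p = 0.0028).

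**Figure D3:**
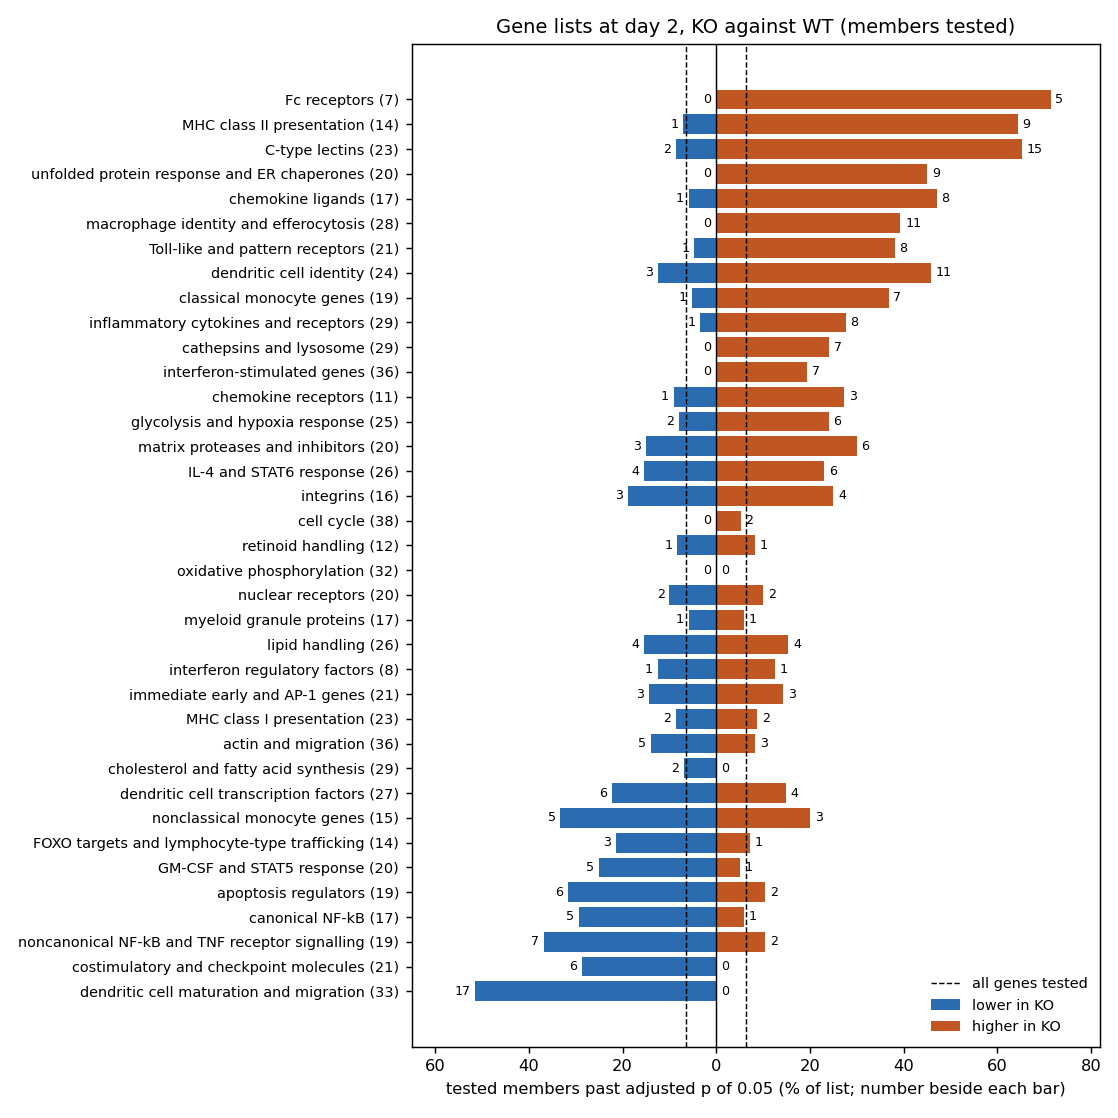
Bars give the share of each list's tested members that passed an adjusted p of 0.05, to the left for lower and to the right for higher in KO, with the number of members beside each bar and tested members in brackets; dashed lines mark the 6.49% and 6.25% over all genes. Dendritic cell maturation and migration has the longest bar to the left (17 of 33) and Fc receptors, C-type lectins and MHC class II the longest to the right.

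Dendritic cell identity genes mark subsets rather than maturity. Of 24 tested members 11 rose (45.8%, against 6.25% of all genes) and 3 fell (12.5%, against 6.49%). Itgae, the integrin CD103, was at 31.2 and 115 CPM in WT and 91.0 and 275 CPM in KO (1.39 ± 0.12, adjusted p = 0.000467). Itgax rose by 0.54 and Sirpa, a receptor of the CD11b+ subset, by 0.49. Flt3, the receptor for a dendritic cell growth factor, was low and fell (13.1 and 7.84 CPM in WT, 7.34 and 2.04 CPM in KO). Of 26 tested IL-4 response genes 6 rose (23.1%) and 4 fell (15.4%). Il1r2, the decoy receptor for IL-1, was at 8.63 and 110 CPM in WT and 23.01 and 292 CPM in KO (1.40 ± 0.12, adjusted p = 0.000371), with pair differences of 1.41 and 1.38 despite the gap in level between experiments. Il4ra, the IL-4 receptor chain, fell by 0.55.

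Of 17 tested chemokine ligands 8 rose (47.1%, against 6.25% of all genes) and 1 fell. Of 29 tested inflammatory cytokine and receptor genes 8 rose (27.6%), 1 fell and 20 did not pass. Il1b was at 25.9 and 10.8 CPM in WT and 90.4 and 33.1 CPM in KO (1.73 ± 0.14, adjusted p = 0.000296). The chemokines Ccl3 and Ccl4 rose by 1.56 and 1.63, Ccl3 from 9.66 and 12.5 CPM to 26.3 and 39.4 CPM. The neutrophil chemokines Cxcl2, Cxcl3 and Ppbp rose by 0.88, 0.92 and 1.65, and Nos2, which makes nitric oxide, by 1.55 from low levels (5.29 and 1.26 CPM to 15.3 and 3.76 CPM). The single cytokine gene that fell was Il12b, the shared subunit of IL-12 and IL-23 (6.67 and 6.32 CPM in WT, 0.667 and 1.39 CPM in KO, -2.55 ± 0.38, adjusted p = 0.00427). Of 21 tested Toll-like and other pattern receptor genes 8 rose, led by Cd14 (1.02) and Nlrp3 (0.93), and 1 fell, Ly96 (-0.79), the partner of TLR4. The chemokine receptor Cxcr4 fell by 1.09.

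Of 28 tested macrophage identity and efferocytosis genes 11 rose (39.3%, against 6.25% of all genes) and 0 fell, with a median of 0.55. Mfge8, a bridge to dying cells, was at 183 and 1137 CPM in WT and 352 and 2890 CPM in KO (1.15 ± 0.13, adjusted p = 0.00134), and Adgre1, the marker F4/80, was at 164 and 77.4 CPM in WT and 296 and 150 CPM in KO (0.90 ± 0.10, adjusted p = 0.00149). Csf1r, the M-CSF receptor, rose by 0.94. Among 19 tested classical monocyte genes 7 rose (36.8%) and 1 fell (5.26%, against 6.49% of all genes). Ly6c2, the surface marker of these cells, was at 50.03 and 9.48 CPM in WT and 93.2 and 18.1 CPM in KO. Nonclassical monocyte genes went both ways, with 3 higher and 5 lower of 15 (20% and 33.3%, median -0.19). Among matrix proteases and inhibitors 6 rose and 3 fell of 20 (30% and 15%). Mmp12, macrophage elastase, was at 1941 and 1007 CPM in WT and 3742 and 3007 CPM in KO (1.26 ± 0.16, adjusted p = 0.00347). The urokinase Plau and its receptor Plaur rose by 1.12 and 1.19, and Mmp23 fell (-2.46).

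**Figure D4:**
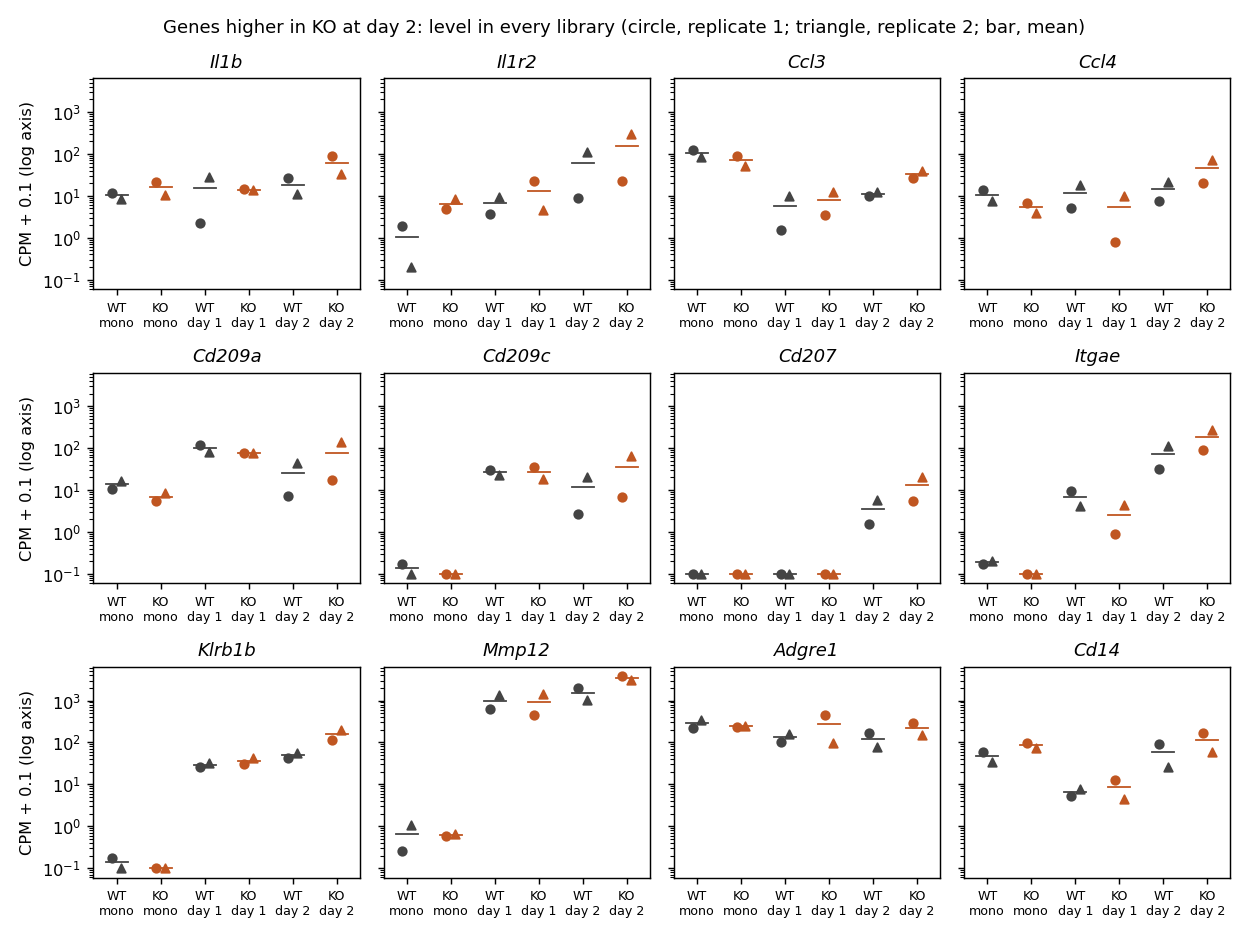
Level of 12 genes that rose (CPM + 0.1, log axis) in every library, by genotype and stage; circles are replicate 1, triangles replicate 2 and bars the mean of both. At day 2 each KO symbol lies above the WT symbol of the same shape, as for Cd209a (7.13 to 17.0 and 45.02 to 137 CPM), while the spread between shapes is often larger than the step between genotypes.

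The 15 largest rises held 6 further genes, of no single family. Hcar2, a receptor for niacin and ketone bodies, was at 24.3 and 84.2 CPM in WT and 94.0 and 241 CPM in KO (1.71 ± 0.14, adjusted p = 0.000486). Klrb1b, an inhibitory lectin-like receptor, was at 42.9 and 56.8 CPM in WT and 112 and 202 CPM in KO (1.61 ± 0.13, adjusted p = 0.000371), with no overlap. Fndc5, Snph, Calcb and Ly6a rose by 1.73, 1.65, 1.51 and 1.48 from low levels, of which the highest in WT was that of Calcb in replicate 2 (13.02 CPM).

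Further lists are set against 6.25% of all genes higher and 6.49% lower. Of 20 tested genes of the unfolded protein response and chaperones of the endoplasmic reticulum 9 rose (45%) and 0 fell, by 0.45 (Hspa5) to 0.60 (Creld2), with the chaperone Hspa5 (BiP) at 595 and 593 CPM in WT and 747 and 885 CPM in KO. Of 29 tested cathepsin and lysosome genes 7 rose (24.1%) and 0 fell, among them Ctsc (0.62), which activates granule proteases, and Grn (0.69). Interferon-stimulated genes gave 7 rises (19.4%) and 0 falls among 36 tested, led by Gbp7 (0.86) and Irf7 (1.16), the latter at 22.3 and 7.84 CPM in WT and 59.9 and 13.2 CPM in KO. In glycolysis and the hypoxia response 6 of 25 rose (24%) and 2 fell, with Ldha, lactate dehydrogenase, at 781 and 1224 CPM in WT and 1183 and 2177 CPM in KO (0.72 ± 0.12, adjusted p = 0.00618). Integrins other than Itgae and Itgax included Itgal (0.93) and Itgb2 (0.65), the chains of LFA-1, on the higher side and Itgb1 (-0.83) on the lower (4 higher and 3 lower of 16). The nuclear receptor Vdr, for vitamin D, fell by 0.77 and the retinoic acid receptor Rara rose by 0.65 (2 higher and 2 lower of 20).

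Cell cycle genes gave 2 rises and 0 falls of 38 (5.26% higher, near the share over all genes, median 0.31), and Mki67, a proliferation marker, was at 338 and 369 CPM in WT and 474 and 423 CPM in KO without passing (adjusted p = 0.104). Nuclear-encoded oxidative phosphorylation genes gave 0 of 32 in either direction (median 0.0995). Actin and migration genes gave 3 rises and 5 falls of 36 (8.33% and 13.9%), and immediate early genes 3 and 3 of 21 (14.3% each way).

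Markers of other cell types were also counted, with 6.25% of all genes higher in KO for comparison. The cultures began with sorted monocytes, whose libraries already held some of these markers. In the monocyte libraries B cell markers summed to 402 to 528 CPM, neutrophil markers to 1181 to 4200 CPM and eosinophil markers to 3.69 to 4.57 CPM. Eosinophil markers were higher in KO in 4 of 6 tested genes, with a summed level of 7.71 to 20.0 CPM in WT and 28.4 to 37.0 CPM in KO. Neutrophil markers were higher in 2 of 9, Cxcr2 and Camp. Their sums were 549 and 1259 CPM in WT and 1109 and 1820 CPM in KO, so the ranges overlapped and both pairs were higher in KO. Cxcr2 was at 1.15 and 1.48 CPM in WT monocytes and at 217 and 189 CPM at WT day 1, so in WT it rose in culture. B cell markers rose in 1 of 4 (sums of 22.7 to 23.3 CPM in WT and 34.2 to 44.7 CPM in KO), erythroid markers in 2 of 5, mast cell and basophil markers in 1 of 5 (Gata2) and megakaryocyte markers in 1 of 3 (Ppbp). T cell, NK cell, plasmacytoid dendritic cell and stromal markers had 0 rises and Tcf7 as the only fall, and the NK genes Klra8, Ncr1 and Prf1 were at 0 reads in all 4 libraries. Plasmacytoid markers summed to 139 and 138 CPM in WT and 193 and 164 CPM in KO. The eosinophil, neutrophil and B cell sums lay in the same direction as the inflammatory and myeloid genes that rose, and their part in those rises was not tested.

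The day 2 difference was set against the earlier stages in 1 paired fit of all 12 libraries and 14034 genes. By file date monocytes and day 1 shared experiments, and day 2 came from others. All 8 earlier libraries held Ddx3y (34.5 to 98.2 CPM) and at most 0.173 CPM of Xist, unlike both replicate 1 libraries of day 2, so stage and the sex of the mice are partly confounded for both genotypes. In that fit edgeR called 0 genes between genotypes at day 1 (257 higher and 95 lower at an unadjusted p under 0.05) and 0 in sorted monocytes (455 and 400). The difference at day 2 departed from that at day 1 in 2 genes (0.0143% of those tested), both lower. Map3k14 was at 33.0 and 25.5 CPM in WT and 34.8 and 20.4 CPM in KO at day 1, and its genotype difference was 2.97 ± 0.34 lower at day 2 (adjusted p = 0.0382). Slc4a8 was at 1.32 CPM or less in every day 1 library before reaching 97.3 and 89.5 CPM in WT day 2. The genotype difference departed from that of monocytes in 7 genes (0.0499%), again all lower: Slc4a8, Scd1, Map3k14, Atmin, Vopp1, Traf1 and Cblb, the last named after its values were seen. Atmin, a cofactor of the kinase ATM, was at 39.8 and 29.4 CPM in WT monocytes, 31.1 and 32.2 CPM at WT day 1 and 213 and 196 CPM at WT day 2, while KO day 2 stayed at 42.9 and 37.5 CPM. Vopp1 went from 20.5 and 15.1 CPM in WT monocytes to 279 and 269 CPM at WT day 2 and was at 63.9 and 36.9 CPM in KO day 2. For Map3k14, Slc4a8 and Atmin both WT day 2 libraries lay above every monocyte, day 1 and KO day 2 library. Of 8 fits that each left out a library of the day 1 contrast, Map3k14 passed in 1 and Slc4a8 in 2. The counts depend on single libraries: without KO day 1 replicate 2 the first contrast gave 54 genes higher and 77 lower, and without WT monocytes replicate 1 the second gave 2 higher and 124 lower.

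Genes that WT cells had changed at least 4-fold by day 1 were followed to day 2. Their libraries are not shared with the day 2 comparison. Of 818 tested genes that rose from WT monocytes to WT day 1, 175 were higher in KO at day 2 (21.4%) and 85 lower (10.4%), with a median of 0.22. Of 609 tested genes that fell in that step, 64 were higher (10.5%) and 52 lower (8.54%), with a median of 0.23. Over all genes tested at day 2 the shares were 6.25% higher and 6.49% lower.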

How the data were processed

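Poly(A) RNA was measured in 12 libraries, 4 of them from day 2. The library kit marks strand and its input was 20 ng, amplified over 16 PCR cycles, per the labels' protocols. Per the submitters' processing notes the authors used Trimmomatic 0.35 and STAR 2.5.1b with GRCm38 and an annotation release not given in the sources used here. As deposited, the values are raw whole-number read counts per gene, made by the authors with STAR's own gene counter and not normalized, with 1 file per library. Column 4, for reverse-stranded kits, was used; in the day 2 libraries the other strand held 4.56% to 4.91% of the reads counted in genes. Of 47643 gene IDs, 47224 matched a symbol in GENCODE M21, which also gave GRCm38 coordinates. The 4 lines per file that name no gene were left out; in the day 2 libraries unmapped reads made up 4.72% to 5.55%, multimapping reads 6.32% to 6.64%, reads outside genes 8.52% to 9.92% and ambiguous reads 1.34% to 1.44%. Near-identical gene copies lose their multimapping reads and are undercounted.

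Day 2 counts were fitted with edgeR 4.0.16 in R 4.3.3 (limma 3.58.1): TMM, filterByExpr, robust quasi-likelihood, genotype plus experiment, 1 residual degree of freedom (median prior degrees of freedom 7.27), two-sided, Benjamini-Hochberg over 12233 genes. The pairing comes from the dates in the deposited files' names. Deviations of same-numbered KO and WT libraries from their group means correlated at 0.753 across genes. Replicates differed beyond sampling noise (chi-square per degree of freedom 42.7 in WT and 50.6 in KO over genes whose 2 libraries summed to 20 reads or more). Simulated counts for the paired comparison gave back 89% of 100 genes changed 2-fold and 100% of 100 changed 4-fold. In that fit of 12233 genes, the changed ones included, 8 unchanged genes were called. For the difference between day 2 and day 1 simulated counts gave back 61% of 100 genes changed 4-fold and 98% of 100 changed 16-fold, over 14034 genes. These counts were drawn with the experiment effects and the trend of spread that the same fits had estimated. Changes were planted only in genes with many reads. The simulations therefore cannot show whether the pairing or that spread is right for the real libraries.

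The main fit, the members and the 48 gene lists were chosen with earlier results of these data known. Of the 852 genes in the lists, 107 are in more than 1 list. Named genes are the 15 largest rises and falls that passed, whose mean reached 5 CPM and whose pairs moved one way, and predicted genes, pseudogenes, receptor segments, ribosomal protein genes, Xist and genes of chromosome Y left out. Added were the NR4A genes, per list up to 4 members that passed with the smallest adjusted p and up to 2 others with the highest CPM, and 6 genes per interaction. Further list members were named after their values were seen. Promoters came from RefSeq.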

Additional observations from a re-analysis of the deposited data

Results flagged for a closer look

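In 7 genes the genotype difference at day 2 departed from that of another stage by an interaction test in the paired fit of all 12 libraries (edgeR, adjusted over 14034 genes), and in each it was lower at day 2. For Slc4a8 the day 2 difference minus that at day 1 was -7.69 on the log2 scale, and minus that in monocytes -9.04. For Map3k14 the same values were -2.97 and -3.17. Against monocytes alone the values were -2.93 for Atmin, -2.83 for Vopp1, -3.13 for Cblb, -3.8 for Traf1 and -9.38 for Scd1. Scd1 had 0 reads in both WT monocyte libraries, and Slc4a8 and Traf1 were low there, so their fitted values depend on the prior count. Traf1 was at 0.230 and 0.211 CPM in WT monocytes and 2.14 and 1.77 CPM in KO monocytes, a difference of 3.08, against -0.72 at day 2.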

How the results depend on the processing

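The day 2 calls depend on the replicate block. Genes higher and lower numbered 764 and 794 with it, and 0 and 3 without it in the same 4 libraries. Over all 12 libraries they numbered 0 and 35 with the block and 0 and 14 without, and over 10 libraries 7 and 142, when the second WT monocyte library and the one labelled as the first of KO day 1 were dropped. DESeq2 1.42.0 with the block gave 326 and 470. Leaving out 1 day 2 library from the fit over the others gave 0 to 0 higher and 3 to 18 lower (9 without WT replicate 1, 3 without WT replicate 2, 18 without KO replicate 1 and 4 without KO replicate 2), the lone library being assumed to vary like the other groups. RLE or upper-quartile scaling, no low-count filter, unstranded counts, limma-voom and the non-robust fit stayed within 1.5 times, from 658 to 1086 higher and 696 to 1014 lower. The 10-library, limma-voom and non-robust fits were chosen after seeing the data. None of the 1558 calls changed direction except in fits that left out a library, where 2 did without KO replicate 2 and 1 without WT replicate 2.

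Nr4a3 no longer passed without the block (-5.51), or over 12 libraries with the block (-5.59) or without it (-5.51). Leaving out a day 2 library gave -6.12 to -5.04, with -5.05 without WT replicate 2. Of the 151 named genes that passed, 3 still did without the block, 14 over 12 libraries with it and 122 of 149 in DESeq2. Among named genes that had not passed, 12 did without the low-count filter, 11 in the non-robust fit and 7 in DESeq2. Of all list members 146 were higher and 87 lower; without the block 0 and 0 passed, over 12 libraries with it 0 and 14.

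The interaction with day 1 gave 0 lower genes without the block, 1 without the 2 libraries that stand apart and 2 with RLE, and 0 to 77 lower and 0 to 54 higher leaving out a library. That with monocytes gave 4, 1 and 7, and 0 to 124 lower and 0 to 2 higher. Map3k14's departure from day 1 passed in only 1 of 8 such fits, that without KO day 1 replicate 2, and Slc4a8's in 2, that one and the one without KO day 2 replicate 1. Of genes raised at least 2-fold in WT by day 1, 262 were higher and 143 lower at day 2, and of those that fell 121 and 111; without the block these counts were 0 and 1, and 0 and 0. With 1 residual degree of freedom the tests lean on spread shared across genes, and KO day 2 replicate 1, with 5905266 reads, limits low genes most.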
